A study of Homo sapiens with 16 samples.

Results

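The genes described here encode the subunits of RNA polymerases I, II and III. They are the protein-coding genes whose symbol is POLR1, POLR2 or POLR3 followed by a letter, with POLR2M left out, and 31 of the 58302 gene identifiers in the count files are described under that rule. Of these, 6 genes encode subunits of Pol I, 2 subunits shared by Pol I and Pol III, 9 subunits of Pol II or its near-identical copies, 9 subunits of Pol III, and 5 subunits common to the 3 enzymes. RNA was taken from HEK293 cells, an established human embryonic kidney line, either as total RNA of cytoplasmic lysates (Input) or from the heavy fractions of sucrose gradients (Polysome). Each fraction was sequenced in 4 libraries of cells in which Gemin5 had been silenced with 100 nM of a small interfering RNA (siRNAG5) and in 4 libraries of control cells (Ctrl), so that the 16 libraries form 4 groups: Input Ctrl, Input siRNAG5, Polysome Ctrl and Polysome siRNAG5. The labels call the Ctrl cells untreated, whereas the study's methods describe a control siRNA, and this is not settled here. Silencing was transient and rests on 1 siRNA sequence in 1 cell line.

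In eukaryotic cells Pol I makes the precursor of the large ribosomal RNAs, Pol II makes messenger RNAs and most small nuclear RNAs, and Pol III makes transfer RNAs and other short RNAs. Each enzyme is built around a pair of large catalytic subunits, an assembly platform, a stalk and a zinc ribbon subunit, and a set of small subunits is common to all 3 enzymes. Pol I and Pol III carry in addition built-in subcomplexes that resemble general factors of Pol II, and Pol III has a trimer that takes part in initiation. Gemin5 is an RNA-binding protein of the SMN complex, which assembles small nuclear ribonucleoproteins, and it also associates with ribosomes. The comparisons asked how the subunit mRNAs differed between siRNAG5 and Ctrl cells in each fraction, and between Polysome and Input in each kind of cell.

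Many mRNAs of the translation machinery begin at their 5′ end with a C followed by a pyrimidine tract, the 5′ terminal oligopyrimidine (TOP) motif. For that reason the annotated starts of the subunit genes on which the results turn are shown, with the start of RPS9, a ribosomal protein gene, for comparison. Each sequence runs from 15 bases before to 15 bases after the RefSeq start site (GRCh38.p14), and capitals mark the bases from the start site onward, which are the first bases of the mRNA:
POLR1G, chr19:45406629-45406658, plus strand: atccacgtggtctgcAACCTGGTGCGAGCA
POLR2L, chr11:842515-842544, minus strand: cgggccgggccgggcAGTCTGGGACGCGCC
POLR2E, chr19:1095361-1095390, minus strand: attcggcgcaggcgcAGTCCGCGCGGGTTC
POLR3K, chr16:53594-53623, minus strand: gagctgccgggagttGGAGCCTGCGGAGTT
POLR2A, chr17:7484351-7484380, plus strand: ttcagcgagttcgctGCTCAGAAGCGCCGA
POLR1F, chr7:19709023-19709052, minus strand: tcaacggcgcgcgccGTGGGAACCTTGACA
RPS9, chr19:54200843-54200872, plus strand: gtggcgcttccgcgcCTCTTTCTCAGTGAC

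None of the 6 subunit mRNAs shown begins with a C followed by 4 pyrimidines, as that of RPS9 does. The RefSeq table held 29 promoters for 23 of the 31 genes, and 0 of these 29 began in that way, against 46 of 80 promoters (57.5%) of cytosolic ribosomal protein genes and 4.07% of all 35116 promoters. POLR1E, POLR2I, POLR3G, POLR2J, POLR3D, POLR2G, POLR2K and POLR2J3 were not in the table. The E-box CACGTG, a palindrome bound by MYC and related factors, was searched in the 250 bases before and 50 bases after each start. It occurred in 4 of the 29 promoters (13.8%), against 7.26% of all promoters, namely those of POLR1G, POLR3A and POLR3E, where it began 12, 35 and 1 bases before the start, and 1 of POLR3C, where it began 196 bases before. A match is a description of the letters, and the annotated start was not compared with reads.

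The depth on genes was 11145324 to 24511299 reads per library. Multiply aligned reads, which the authors' counting set aside, made up 4.88 to 6.04% of an Input library but 21.2 to 42.4% of a Polysome library. GEMIN5 itself, the silenced gene, was at 17.9 ± 2.32 CPM (reads of a gene relative to the scaled size of its library, mean ± SD, n = 4 here and below) in Input Ctrl and 6.72 ± 0.529 CPM in Input siRNAG5, and at 7.44 ± 1.56 and 2.65 ± 0.495 CPM in the same order in Polysome. Its log2 FC was -1.40 ± 0.12 (standard error) in Input and -1.44 ± 0.21 in Polysome. All 7 marker genes of HEK293 cells were detected, with PAX2 the lowest at 0.349 to 2.07 CPM. Of 15 liver genes, which these cells should lack, the summed level was 80.8 to 167 CPM in the 4 Polysome Ctrl libraries and 131 and 151 CPM in Input Ctrl 4 and 3, but 0.371 to 2.69 CPM in the other 10 libraries. APOB, SERPINA1, FGA, APOC3, APOH and AMBP were among the 8 at 0 reads in each siRNAG5 group. Summed blood markers, among which HBD, HBG1 and ALAS2 had no read, stayed at 3.02 CPM or less and brain markers at 3.64 CPM or less. In bulk RNA, fewer cells of a type and less RNA per cell cannot be told apart, and each level is relative to the other mRNAs of its library.

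Small subunits had the highest mRNA levels per length, and the largest subunits of Pol I and Pol III the lowest among the genes with more than a few reads. On the scale of CPM per kilobase of the canonical transcript, the highest levels in Input Ctrl were those of POLR2L (697 ± 51.9), a small zinc-binding common subunit, POLR2I (619 ± 12.7), the zinc ribbon subunit of Pol II, and POLR1D (488 ± 15.8), which forms with POLR1C the assembly platform of Pol I and Pol III. The ranges of POLR2L (655 to 766) and POLR2I (607 to 634) did not overlap, though they lay close together. POLR2G, a stalk subunit of Pol II, followed with 402 ± 27.1, POLR2J of the Pol II platform with 323 ± 21.5, and POLR3K, the zinc ribbon subunit of Pol III, with 229 ± 20.1. POLR1D depends on the transcript chosen, because over the union of its exons it had 27.4 CPM per kilobase and ranked 11, not 3, among the 31 genes.

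Of the 6 large catalytic subunits, 5 stood near the low end of that scale, and POLR2B ranked 15 of 31. In Input Ctrl the largest subunits had 0.591 ± 0.0844 (POLR1A, Pol I), 4.29 ± 0.259 (POLR2A, Pol II) and 1.80 ± 0.121 (POLR3A, Pol III) CPM per kilobase, and the second largest had 2.90 ± 0.251 (POLR1B), 21.9 ± 1.90 (POLR2B) and 3.97 ± 0.383 (POLR3B). In each enzyme the second largest subunit was thus higher per length than the largest, with no overlap between the 4 libraries of the one and of the other. Among subunits of Pol I alone, POLR1H, the zinc ribbon subunit, was the highest with 145 ± 6.92. Among those of Pol III, POLR3K was the highest, and POLR3GL had 24.0 ± 0.740.

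Of the genes with few reads, POLR2F, which encodes a common subunit, had 65 reads over the 16 libraries, and POLR2J2, a near-identical copy of POLR2J, had 15. Both failed the filter on low counts, so that 29 of the 31 genes were tested in each comparison. Reads that fall on more than 1 gene were not counted, and exons of another gene on the same strand cover 89.3% of the canonical transcript of POLR2J2, 51.7% of that of POLR2J3 and 32.4% of that of POLR3GL. Counts of POLR2J2, POLR2J3 and POLR3GL are therefore uncertain. POLR2J has no such overlap, and reads it may share with its near-identical copies were not measured. The low count of POLR2F was not traced to a cause.

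**Figure D1:**
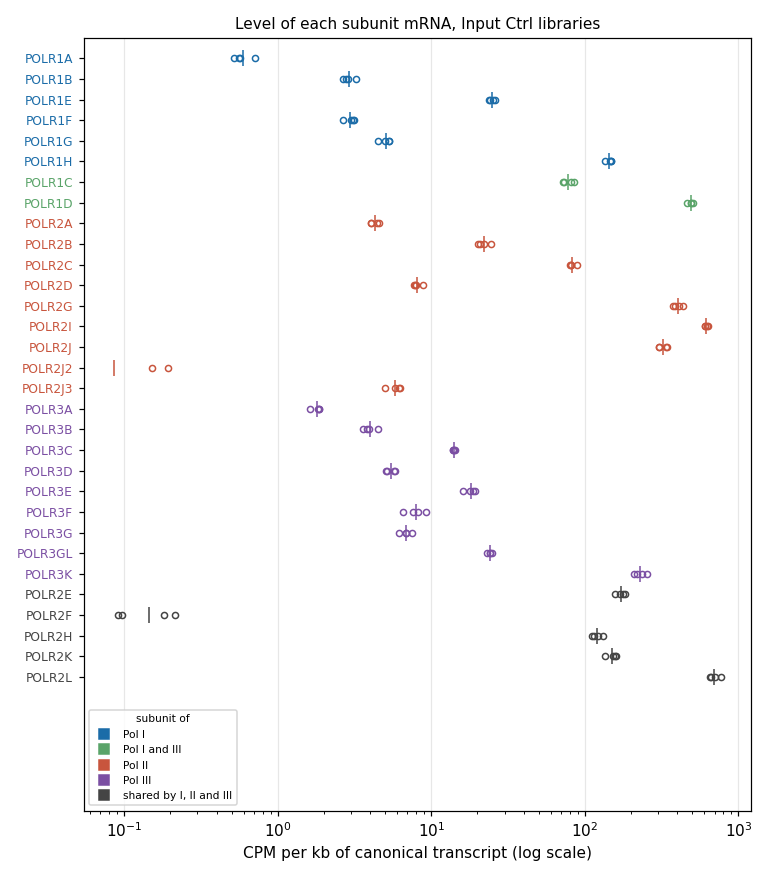
Level of each of the 31 subunit mRNAs in the 4 Input Ctrl libraries, in CPM per kilobase of the canonical transcript on a log axis. Open circles are libraries and vertical ticks are means, colour gives the enzyme, and libraries at 0 reads (for POLR2J2) are not drawn; POLR2L, POLR2I and POLR1D lie at the right and POLR1A at the left of the genes with more than a few reads.

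In Input RNA, 4 subunit mRNAs fell and 1 rose in siRNAG5 cells, and these came from all 3 enzymes. POLR1G, POLR2L, POLR3K and POLR2E fell, with log2 FC of -0.97 to -0.57, whereas POLR2A, which carries the catalytic centre and the C-terminal repeat domain of Pol II, rose by 0.54. A gene was called at an adjusted p under 0.05 (edgeR's quasi-likelihood test, Benjamini-Hochberg) and a log2 FC beyond 0.5. Of all 14134 genes tested, 6.02% were called lower and 10.5% higher, so that 4 and 1 of 29 stand beside a background of that size. Among the 29 tested subunits 23 had a log2 FC below 0, and the median was -0.23 against 0.04 over all genes tested. With the adjusted p alone, 15 subunits were lower and 2 higher, where 19.1% and 17.9% of all genes were.

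POLR1G, which pairs with POLR1E in a built-in subcomplex of Pol I, had 12.7, 15.0, 14.1 and 15.1 CPM in Input Ctrl 1 to 4 and 6.59, 6.17, 7.37 and 8.42 CPM in Input siRNAG5 1 to 4. Each siRNAG5 library was below each Ctrl library, and its log2 FC was -0.97 ± 0.12 (edgeR adjusted p = 2.51e-07).

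POLR2L had 578, 671, 619 and 574 CPM in Input Ctrl and 313, 300.3, 353 and 296 CPM in Input siRNAG5. The groups did not overlap, for a log2 FC of -0.94 ± 0.07 (edgeR adjusted p = 2.37e-11). POLR3K, which takes part in RNA cleavage and termination by Pol III, had 287, 349, 325 and 298 CPM in Ctrl and 197, 209, 209 and 203 CPM in siRNAG5. All its siRNAG5 libraries lay below all Ctrl libraries, with a log2 FC of -0.61 ± 0.07 (edgeR adjusted p = 3.06e-08). POLR2E, a common subunit in the jaw of the enzymes, had 447, 518, 482 and 505 CPM in Ctrl against 339, 328, 321 and 320.3 CPM in siRNAG5. It did not overlap between the groups either, with a log2 FC of -0.57 ± 0.06 (edgeR adjusted p = 3.19e-08).

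POLR2A had 25.7, 25.7, 27.8 and 29.0 CPM in Input Ctrl and 40.6, 39.4, 34.8 and 40.9 CPM in Input siRNAG5. All 4 siRNAG5 libraries were higher than all Ctrl libraries, with a log2 FC of 0.54 ± 0.09 (edgeR adjusted p = 1.02e-05). POLR2B, its partner in the catalytic core, had a log2 FC of -0.06 ± 0.07 and was not called. The largest subunits of the other enzymes were not called, with 0.13 ± 0.11 for POLR3A and -0.12 ± 0.14 for POLR1A.

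The level of 19 of the 29 tested subunits did not overlap between the groups in Input, 15 of them lower and 4 higher in siRNAG5, where 19.1% and 15.1% of all genes tested were lower and higher without overlap. The 4 higher ones were POLR2A, POLR3GL, POLR1D and POLR1E, of which POLR2A alone was called. Leaving out Input Ctrl 3 and 4, the libraries with liver genes, gave 5 lower and 1 higher, with all 5 of the genes above among them and POLR2J (-0.51) added. The log2 FC of POLR2L was then -0.98 and that of POLR2A 0.60.

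By enzyme, the common subunits were lower throughout. All 4 tested had an adjusted p under 0.05 with negative log2 FC (POLR2L and POLR2E as above, POLR2K -0.33 ± 0.07, POLR2H -0.25 ± 0.07), and their median was -0.45. The other medians were -0.20 for the 6 of Pol I, -0.14 for the 2 shared by Pol I and Pol III, -0.26 for the 8 of Pol II and -0.21 for the 9 of Pol III. The 2 shared by Pol I and Pol III went apart, with -0.43 ± 0.07 for POLR1C (edgeR adjusted p = 1.67e-05) and 0.15 ± 0.06 for POLR1D (adjusted p = 0.0522). Summed over its genes, the group of common subunits had 1377 to 1575 CPM in Input Ctrl and 909 to 980 CPM in Input siRNAG5. For Pol II the sums were 1152 to 1274 and 913 to 958 CPM, for Pol III 527 to 599 and 428 to 442 CPM, and for Pol I 219 to 227 and 195 to 208 CPM, and in each of these 4 classes the siRNAG5 libraries lay below the Ctrl libraries. The sum over the 2 shared by Pol I and Pol III, 415 to 448 CPM in Ctrl, overlapped with 436 to 451 CPM in siRNAG5. Such sums are weighted to the abundant genes and do not describe each gene of a class. The mean Pol III sum went from 560 to 438 CPM, and POLR3K alone from 315 to 205 CPM. Of the common subunits, POLR2L went from 610 to 315.5 CPM and POLR2E from 488 to 327 CPM.

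By position in the enzyme, the stalk subunits among the genes described, POLR2G (-0.45 ± 0.06), POLR1F (-0.43 ± 0.13) and POLR2D (-0.20 ± 0.08), were below 0 and not called. The zinc ribbon subunits had -0.61 (POLR3K), -0.31 ± 0.06 (POLR2I) and -0.12 ± 0.06 (POLR1H). Of the 4 core platform subunits, POLR2J (-0.49 ± 0.06), POLR1C and POLR2C (-0.31 ± 0.07) had an adjusted p under 0.05 but missed the fold. The 6 large subunits ranged from -0.27 ± 0.11 (POLR1B) to 0.54 (POLR2A), with a median of -0.09.

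**Figure D2:**
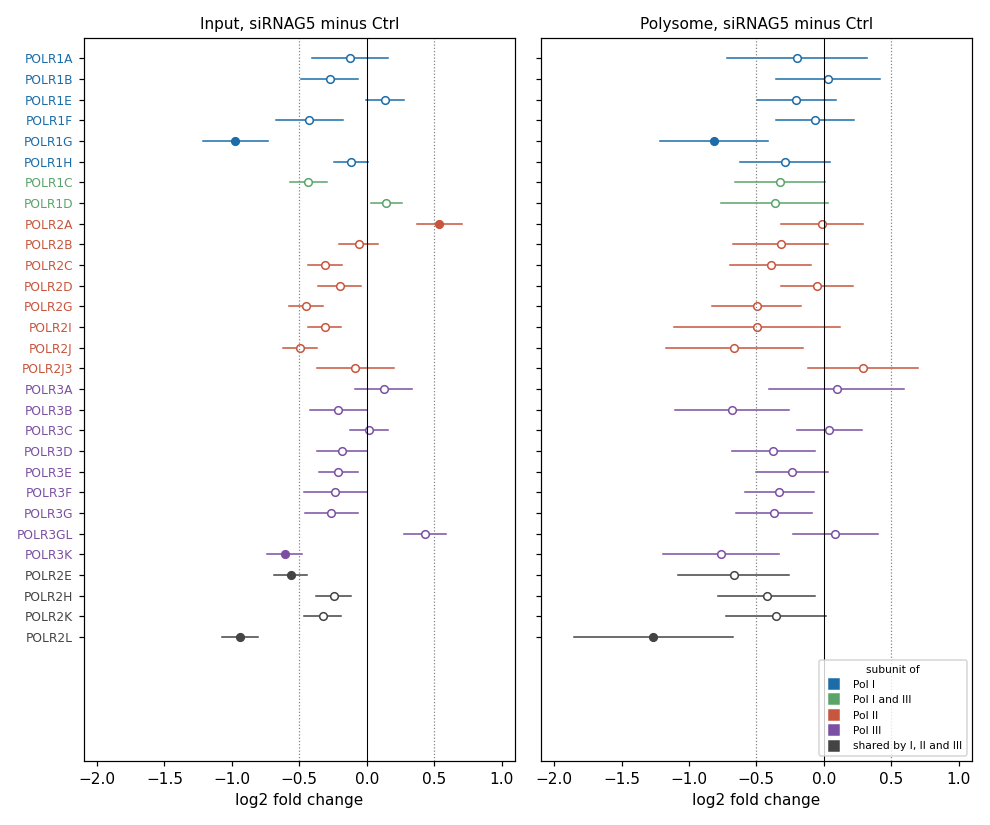
Log2 fold change of siRNAG5 against Ctrl for the 29 tested subunits, in Input (left) and Polysome (right). Points are edgeR estimates with 95% intervals, filled where called, dotted lines mark a log2 FC of 0.5 in either direction, and colour gives the enzyme; in Input 4 genes are filled on the left and POLR2A on the right, and in Polysome POLR1G and POLR2L are filled.

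In Polysome RNA, POLR2L and POLR1G fell in siRNAG5 cells, and no subunit mRNA rose. These 2 of 29 stand beside 4% of all 14420 genes tested called lower and 3.95% called higher. The spread between libraries was wider than in Input, and 24 subunits had a log2 FC below 0 with a median of -0.33, against 0.03 over all genes tested. By the unadjusted p alone, with a limit of 0.05, 12 of the 29 were lower and none higher, where 13.3% and 14.4% of all genes were.

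POLR2L had 752, 676, 449 and 459 CPM in Polysome Ctrl 1 to 4 and 285, 139, 169 and 358 CPM in Polysome siRNAG5 1 to 4. The groups did not overlap although each was split, and the log2 FC was -1.26 ± 0.30 (edgeR adjusted p = 0.0300). POLR1G had 12.0, 18.6, 24.5 and 20.2 CPM in Ctrl and 8.35, 12.1, 11.1 and 9.96 CPM in siRNAG5. Polysome Ctrl 1 lay just under the highest siRNAG5 library, and the log2 FC was -0.82 ± 0.21 (edgeR adjusted p = 0.0357).

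Of the other genes that changed in Input, POLR3K had a log2 FC of -0.76 ± 0.22 in Polysome (edgeR adjusted p = 0.0526) and POLR2E one of -0.67 ± 0.21 (adjusted p = 0.0669). Both miss the threshold with estimates at least as large as those in Input. POLR2A had 14.8, 15.4, 19.7 and 17.6 CPM in Polysome Ctrl and 14.5, 16.2, 19.7 and 14.6 CPM in Polysome siRNAG5. Its groups overlapped, with a log2 FC of -0.01 ± 0.16. Without overlap in Polysome were 4 subunits, all lower in siRNAG5 (POLR2E, POLR2G, POLR2L and POLR3F), where 10% of all genes tested were lower and 8.29% higher in that sense. POLR2E was so by a narrow gap, with 390.8 CPM in siRNAG5 4 and 394.1 CPM in Ctrl 4.

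Calls in Polysome depended on single libraries, for the subunits and for all genes. Without Polysome Ctrl 2 neither gene was called (adjusted p = 0.113 for POLR2L and 0.120 for POLR1G by edgeR, with log2 FC of -1.17 and -0.81), nor was any subunit without siRNAG5 1, 2 or 3. Without each of the other libraries in turn 1 to 3 subunits were called, and POLR1G was not called without Ctrl 3, Ctrl 4 or siRNAG5 4 nor POLR2L without Ctrl 1. Lower calls over all genes moved too, from 577 of 14420 in the main fit to 113 of 14705 without Polysome Ctrl 2. They were 254, 245 and 245 without Polysome siRNAG5 1, 2 and 3, and 321 to 836 without each of the others. Liver genes were present in all 4 Polysome Ctrl libraries and near 0 in all 4 Polysome siRNAG5 libraries, so that they cannot be told apart from the treatment here.

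**Figure D3:**
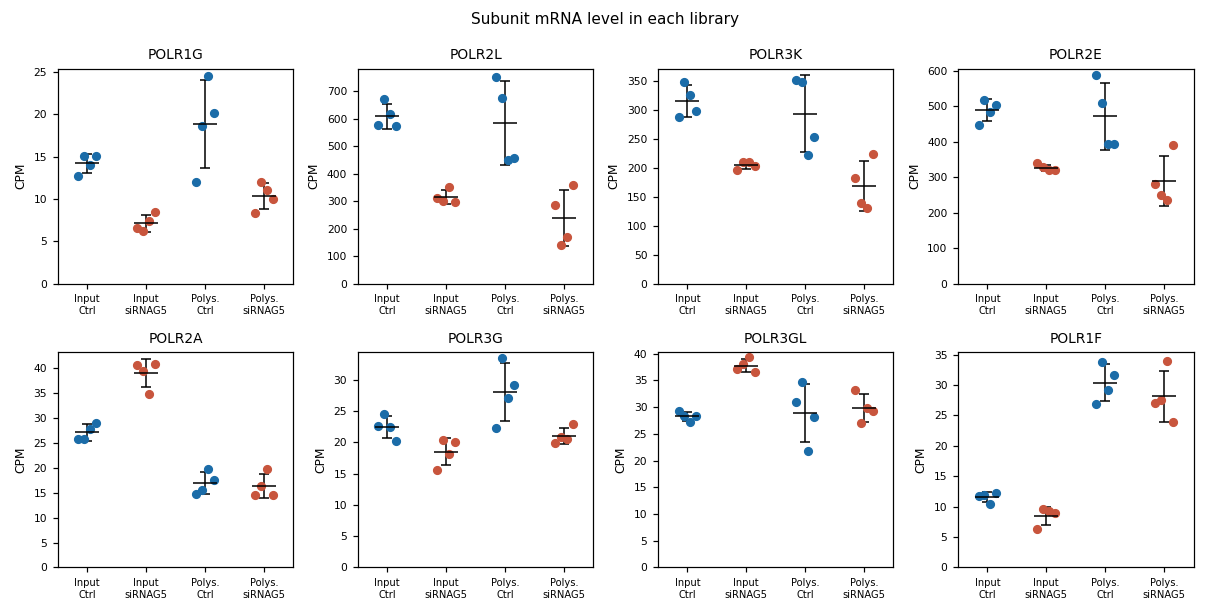
Level in CPM of 8 subunit mRNAs in each of the 16 libraries, by group, with each axis starting at 0. Blue points are Ctrl and red points siRNAG5 libraries, in the order of the replicate numbers, and bars give the mean ± SD (n = 4). For POLR2L and POLR2E no siRNAG5 library reaches a Ctrl library in either fraction. For POLR2E in Polysome the gap is narrow, with 390.8 CPM in siRNAG5 4 and 394.1 CPM in Ctrl 4. POLR2A differs in Input and overlaps in Polysome.

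POLR3G and POLR3GL are alternative subunits of the Pol III trimer, the former known from stem and proliferating cells and the latter from most tissues. In Input the log2 FC was -0.26 ± 0.10 for POLR3G (edgeR adjusted p = 0.0408) and 0.43 ± 0.08 for POLR3GL (adjusted p = 7.58e-05), neither of them past the fold of the call. The log2 ratio of POLR3GL to POLR3G CPM was 0.37, 0.21, 0.28 and 0.49 in Input Ctrl 1 to 4 and 1.24, 0.91, 1.12 and 0.87 in Input siRNAG5 1 to 4. All 4 siRNAG5 libraries were above all Ctrl libraries, by 0.70 on average. The exact permutation test gave p = 0.0286, the smallest that 4 libraries against 4 can give (two-sided), and 0.0571 after adjustment over the 2 fractions. The pair was chosen with these values known, and the adjustment does not count other pairs that could have been chosen. This p is therefore a description and no independent support.

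In Polysome the same log2 ratio was 0.47, 0.05, -0.32 and -0.06 in Ctrl and 0.73, 0.37, 0.54 and 0.35 in siRNAG5. The groups overlapped through Polysome Ctrl 1, and the mean difference of 0.46 had an exact permutation p of 0.0857 (adjusted 0.0857). The same limit holds here, because the pair was chosen with the values known. Reads on the 32.4% of the POLR3GL transcript that exons of another gene on the same strand cover were not counted in any group.

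Polysome was then compared with Input within each kind of cell, which shows how the subunit mRNAs were represented in heavy fractions relative to the cytoplasm. The 4 large catalytic subunits of Pol II and Pol III were under-represented in Polysome, and POLR1F, POLR3F and POLR2D were over-represented, in both Ctrl and siRNAG5 cells. In Ctrl cells 7 subunits were lower and 3 higher in Polysome, where 18.2% and 19.4% of the 14958 genes tested were, and the median was -0.11 against -0.04 over all genes. In siRNAG5 cells 11 were lower and 4 higher, where 25.4% and 21.5% of all genes were, and the median was -0.31 against -0.12. All 4 Polysome libraries lay below all 4 Input libraries for 11 subunits and above them for 3 in Ctrl, where 22.1% and 19.9% of all genes did, and for 11 and 3 in siRNAG5, where 27.3% and 22.7% did. Without Input Ctrl 3 and 4 together, the counts in Ctrl were 5 lower and 2 higher, as POLR3A, POLR3C and POLR2D were then not called.

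POLR1F, the stalk subunit of Pol I that contacts its initiation factor, was the most over-represented. In Ctrl it had 11.7, 12.0, 10.4 and 12.2 CPM in Input and 26.8, 33.8, 29.3 and 31.7 CPM in Polysome, a log2 FC of 1.39 ± 0.14 (edgeR adjusted p = 3.32e-07). In siRNAG5 it had 6.33, 9.60, 9.21 and 8.94 CPM in Input and 27.1, 27.6, 34.0 and 23.8 CPM in Polysome, a log2 FC of 1.72 ± 0.14 (adjusted p = 1.22e-08). All Polysome libraries were above all Input libraries in both kinds of cell. POLR3F of the Pol III trimer had 0.87 ± 0.13 in Ctrl and 0.75 ± 0.13 in siRNAG5, and POLR2D of the Pol II stalk 0.51 ± 0.11 and 0.63 ± 0.11. The call of POLR2D in Ctrl is close to the fold and was lost without Input Ctrl 3, Input Ctrl 4, Polysome Ctrl 1 or Polysome Ctrl 3, at 0.45 or more. POLR1G passed as higher in siRNAG5 alone, with 0.54 ± 0.18 against 0.41 ± 0.17 in Ctrl, and lost that call in 4 of 17 alternatives (1 surrogate variable, or without Input siRNAG5 1, Input siRNAG5 2 or Polysome siRNAG5 2), at 0.35 or more.

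Among the subunits lower in Polysome, POLR2B had 78.7, 92.5, 76.2 and 84.0 CPM in Input Ctrl and 27.6, 38.1, 35.7 and 41.6 CPM in Polysome Ctrl. The groups lay far apart, and the log2 FC was -1.21 ± 0.14 (edgeR adjusted p = 1.91e-06), with -1.51 ± 0.14 in siRNAG5. POLR3B had -1.14 ± 0.17 in Ctrl and -1.64 ± 0.17 in siRNAG5, POLR2A -0.68 ± 0.12 and -1.26 ± 0.12, and POLR3A -0.60 ± 0.20 and -0.67 ± 0.19. These 4 large subunits were called in both kinds of cell, whereas those of Pol I were called in neither, with -0.25 ± 0.23 and -0.35 ± 0.22 for POLR1A and -0.40 ± 0.17 and -0.13 ± 0.16 for POLR1B. The call of POLR3A in Ctrl was lost without Polysome Ctrl 1 or Polysome Ctrl 2. POLR2J (-1.02 ± 0.20 and -1.21 ± 0.20) and POLR1C (-0.96 ± 0.14 and -0.89 ± 0.14) of the assembly platforms were lower as well, as was POLR3C of the Pol III trimer (-0.51 ± 0.09 and -0.52 ± 0.09), which is close to the fold and kept its call in 10 of 18 alternatives in Ctrl and 9 of 17 in siRNAG5.

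Called lower in siRNAG5 alone were POLR1D (-0.95 ± 0.15, with -0.41 ± 0.15 in Ctrl), POLR1E (-0.81 ± 0.11, with -0.44 ± 0.11), POLR1H (-0.57 ± 0.13, with -0.37 ± 0.13) and POLR2I (-0.60 ± 0.24, with -0.40 ± 0.24). The call of POLR2I was kept in 8 of 17 alternatives and that of POLR1H in 12 of 17, with losses without Polysome siRNAG5 2 or 3 in both genes and without Input siRNAG5 1, 2 or 3 in POLR2I. The difference between siRNAG5 and Ctrl cells, which equals the difference between the fractions given below, was called for none of them. The common subunits were called in neither direction in either kind of cell, at -0.11 to 0.05 in Ctrl and -0.41 to 0.00 in siRNAG5. Among members of one complex the mRNAs were thus unequally represented in Polysome. Calls in both directions were common over all genes too, with 18.2% lower and 19.4% higher in Ctrl. For Pol I the log2 FC in Ctrl ran from -0.44 (POLR1E) to 1.39 (POLR1F), for Pol II from -1.21 (POLR2B) to 0.51 (POLR2D) and for Pol III from -1.14 (POLR3B) to 0.87 (POLR3F).

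**Figure D4:**
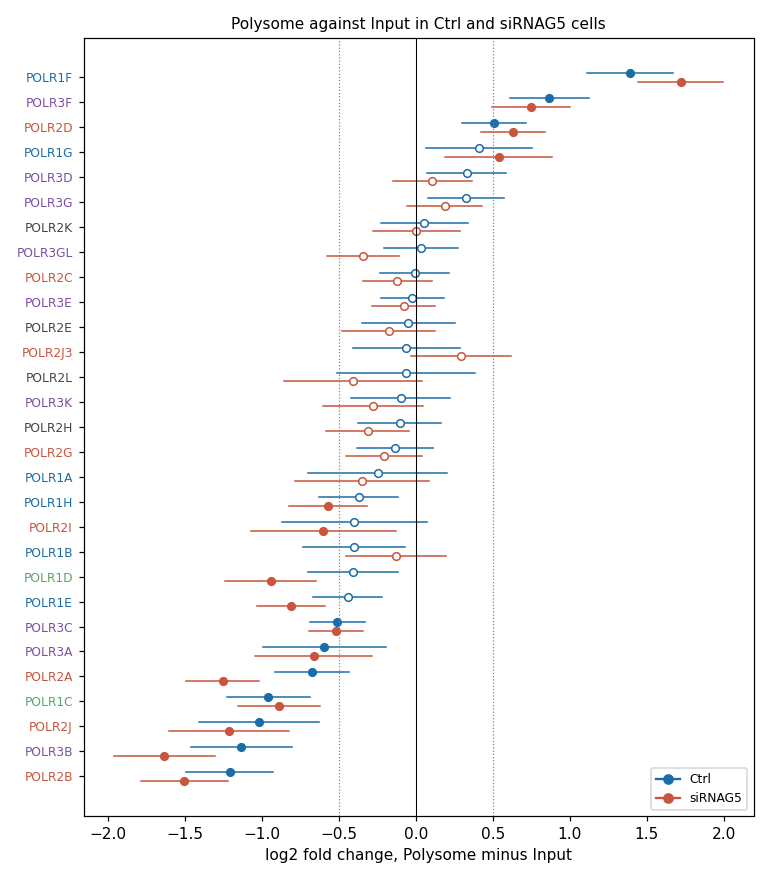
Log2 fold change of Polysome against Input for the 29 tested subunits in Ctrl (blue) and siRNAG5 (red) cells, ordered by the value in Ctrl. Points are edgeR estimates with 95% intervals, filled where called, and gene names are coloured by enzyme as in the other plots; POLR1F and POLR3F lie at the top with positive values and POLR3B and POLR2B at the bottom.

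Whether the change after silencing differed between the fractions was tested in a fit of all 16 libraries. No subunit was called, as 0% of all 14958 genes were in either direction by edgeR, while DESeq2 called 11 genes lower and 18 higher. An unadjusted p below 0.05 was reached by 5 subunits, all with a change in Polysome below that in Input, where 4.69% of all genes were below and 2.59% above. POLR2A had the smallest p, with a difference of -0.58 ± 0.17 (edgeR adjusted p = 0.468), from 0.54 in Input and -0.01 in Polysome. POLR1D had -0.53 ± 0.21 (adjusted p = 0.556), POLR3B -0.50 ± 0.23 (adjusted p = 0.683), POLR1E -0.37 ± 0.16 (adjusted p = 0.622) and POLR3GL -0.37 ± 0.17 (adjusted p = 0.653). For the genes called in both fractions the difference was 0.13 ± 0.25 for POLR1G and -0.34 ± 0.32 for POLR2L, and neither was called.

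The subunits differ widely in size, from POLR2K with a coding length of 174 bases to POLR2A with 5910. Of the 16 tested subunits with a coding length under 1000 bases, 14 had a log2 FC below 0 in Input, 3 were called lower and none higher, and the median was -0.29. Of the 13 longer ones, 9 were below 0, 1 was called lower (POLR1G) and 1 higher (POLR2A), and the median was -0.18. Across the 29 genes, which are not independent replicates and share their libraries, the log2 FC in Input correlated with log2 coding length at Pearson's r = 0.41 (Spearman's rho = 0.45), and across all 11884 protein-coding genes tested at r = 0.31 (rho = 0.35). In Polysome the values were 0.43 (0.47) for the subunits and 0.20 (0.31) for the 12263 protein-coding genes tested. A relation of the same sign was present over all genes. With the length of the whole canonical transcript it was weaker in the subunits, at r = 0.22 in Input and 0.34 in Polysome. Over all protein-coding genes tested it was then weaker in Input, at r = 0.21, but stronger in Polysome, at r = 0.26.

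Short and long subunit mRNAs also varied between Polysome libraries of 1 group. POLR2I had 271, 242, 158 and 160 CPM in Polysome Ctrl and 191, 79.8, 95.5 and 211 CPM in Polysome siRNAG5, and POLR2J had 183, 169, 125 and 118 CPM and 118, 58.6, 66.8 and 124 CPM. In both genes, as in POLR2L, libraries Ctrl 1, Ctrl 2, siRNAG5 1 and siRNAG5 4 were the higher ones of their groups. In Input POLR2I and POLR2J had SDs of 5.62 to 20.1 CPM around means of 213 to 302 CPM. Among long subunits, POLR1A had 3.91, 5.84, 6.03 and 8.97 CPM in Polysome Ctrl and 4.25, 6.78, 6.06 and 3.64 CPM in Polysome siRNAG5. POLR3A had 4.66, 7.28, 9.49 and 9.76 CPM in Polysome Ctrl and 5.94, 9.82, 10.2 and 6.27 CPM in Polysome siRNAG5. In POLR1A and POLR3A, libraries Ctrl 1, Ctrl 2, siRNAG5 1 and siRNAG5 4 were the lower ones of their groups.

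**Figure D5:**
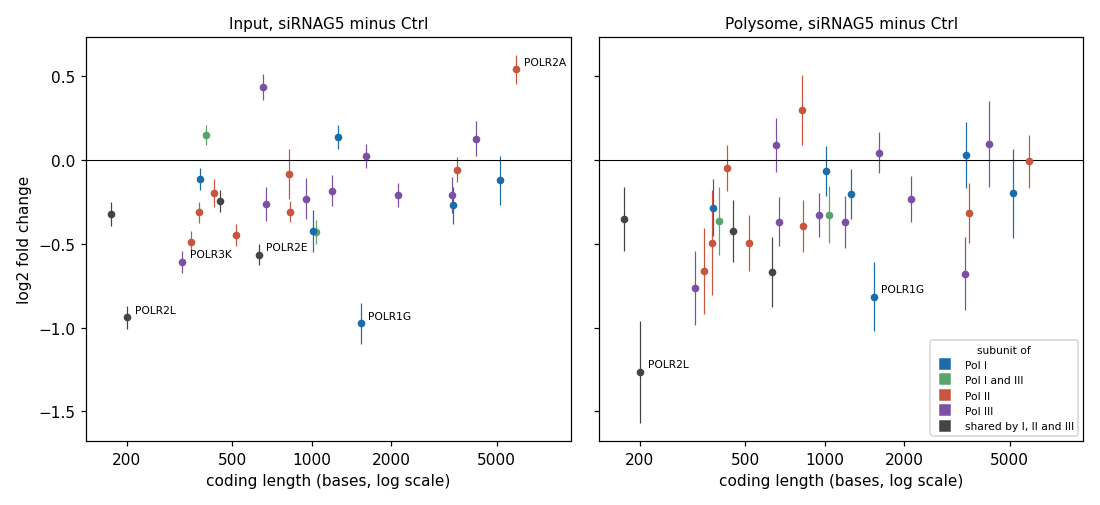
Log2 fold change of siRNAG5 against Ctrl by coding length (bases, log axis) for the 29 tested subunits in Input (left) and Polysome (right). Bars give the standard error, colour the enzyme, and called genes are named; POLR2L, POLR3K and POLR2E lie among the short genes and POLR2A is the longest.

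Genes outside the rule for members that belong to the polymerases or work with them were counted in the same way. Over all genes tested, 6.02% were called lower and 10.5% higher in Input, and 4% and 3.95% in Polysome. Of 7 Pol I factors none was called in Input or Polysome after silencing, with medians of 0.01 and -0.03. Of 20 general factors of Pol II, 19 were tested, and GTF2A2 (-0.59 ± 0.07), a subunit of TFIIA, and GTF2H2 (-0.65 ± 0.10), a subunit of TFIIH, were called lower in Input, while GTF2H2 alone was in Polysome (-0.63 ± 0.16). None of the 14 genes of TFIID, the complex that binds core promoters, was called in either fraction. Of 17 Pol III factors, GTF3A (-0.62 ± 0.07), which binds the genes of the smallest ribosomal RNA, and GTF3C6 (-0.52 ± 0.08), a subunit of TFIIIC, were called lower in Input, and GTF3C3 (0.61 ± 0.15) was called higher in Polysome. Of 15 genes for the assembly and nuclear import of polymerases, the GTPase GPN2 was called lower in Input (-0.54 ± 0.09) and Polysome (-0.57 ± 0.15), where PFDN6 (-0.71 ± 0.15) and PDRG1 (-0.63 ± 0.14), of prefoldin and a prefoldin-like complex, were lower too, and the medians were -0.22 and -0.39.

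As other nucleic acid polymerases, 4 genes of mitochondrial transcription and 12 of the replicative DNA polymerases were listed. TFB2M, a mitochondrial initiation factor, was called lower in Input (-0.80 ± 0.09) and in Polysome (-0.54 ± 0.15). POLE4, a small subunit of DNA polymerase epsilon, was called lower in both (-0.81 ± 0.08 and -1.17 ± 0.28), and POLD1, the catalytic subunit of DNA polymerase delta, was called higher in Input (0.57 ± 0.08). The medians of these lists were -0.37 and -0.09 in Input, against -0.23 for the subunits of RNA polymerases.

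Between Polysome and Input in Ctrl, 18.2% of all genes tested were lower and 19.4% higher. Of the 19 tested Pol II general factors 4 were lower and 4 higher, and of the 14 genes of TFIID 1 and 4. TCEA1 (1.07 ± 0.12), an elongation factor, and TAF4 (0.86 ± 0.18) were among the higher ones. CRCP, whose symbol lies outside the rule for members, was counted with the Pol III factors. It was over-represented in Polysome at 1.21 ± 0.12 in Ctrl and 0.87 ± 0.11 in siRNAG5. Of the 17 Pol III factors 5 were lower in Ctrl, GTF3C3 (-1.13 ± 0.12) among them, and 3 higher. Of the 12 replicative DNA polymerase genes 6 were lower, such as PRIM1 (-0.75 ± 0.10), and 1 was higher. Of the assembly genes, 4 were lower and none higher in Ctrl, among them the ATPases RUVBL1 (-0.70 ± 0.15) and RUVBL2 (-0.64 ± 0.14).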

How the data were processed

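RNA of HEK293 cells was sequenced in 16 libraries (stranded, polyadenylated RNA), 4 per group. The authors aligned reads to GRCh38 with STAR 2.5.3a (version per the labels), counted them per gene of Ensembl release 91 with QoRTs and deposited raw counts, 1 column per library. Reads on no gene, on several genes or at several places were listed apart and left out here. Names, lengths and coordinates came from GENCODE v44 (GRCh38). No 2 libraries held identical counts.

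From the deposited counts, Ctrl and siRNAG5 libraries of a fraction were compared in a fit of that fraction (edgeR 4.0.16, R 4.3.3: filterByExpr, TMM, quasi-likelihood test), and Polysome with Input, and the difference between the fractions, in a fit of all 16 libraries. CPM used TMM factors of all 16. Calls needed a log2 FC beyond 0.5 and an adjusted p (Benjamini-Hochberg) under 0.05. The standard error is the estimate divided by the square root of F, and intervals are the estimate ± 1.96 standard errors. On simulated counts with 200 genes changed by a log2 FC of 1, the tests recovered 200 (Input, 14134 genes), 143 (Polysome, 14420 genes) and 130 (difference, 14958 genes). False calls were 8, 10 and 9 in the same order. The changed genes were drawn from those above a minimum level, and smaller changes, as most subunits had, were not simulated. Promoters came from RefSeq (GRCh38.p14). Summaries and plots used scipy 1.17.1, matplotlib 3.10.9, numpy 2.4.6 and pandas 2.3.3 in Python 3.11.15. The members, the lists of factors and markers and the rule for named genes (all members, GEMIN5, and up to 3 called genes of a list with the smallest p) were chosen with earlier results of these data known. The methods describe 4 independent biological samples per treatment. Input and Polysome RNA came from the same lysates in the paper, but whether equal replicate numbers mark 1 lysate was not settled. Same-numbered samples correlated at -0.607 to 0.545 in their deviations from group means, and Input with Polysome at -0.226 to 0.227. The same number matched best for Ctrl 2 (0.222 against -0.0153) but not for siRNAG5 4 (-0.226 against 0.287). Replicate numbers were not used as pairs in the main fits, which treat the fractions as independent. Alternatives were DESeq2 1.42.0, other size factors, no filter, the unadjusted p, no minimum fold, a replicate block, 1 surrogate variable (sva 3.50.0), other sets of libraries in the fit, and each library left out. Proteins were not analysed here, and 1 gene that meets the rule for members is not reported.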

Additional observations from a re-analysis of the deposited data

Results flagged for a closer look

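In 116 combinations of a tested subunit gene and a group, the highest or lowest of the 4 libraries was compared with the other 3 by Dixon's test, and 4 stood apart, where chance alone gives about 1 in 20. POLR1H had 114 CPM in Input Ctrl 4, below the 125 to 127 CPM of the others. POLR2C had 156 CPM in Input Ctrl 2, above 141 to 143 CPM. POLR3A had 10.7 CPM in Input Ctrl 3, below 12.1 to 12.3 CPM, and POLR3D had 21.6 CPM in Input siRNAG5 3, below 26.4 to 26.8 CPM. None of these 4 genes was called in Input.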

How the results depend on the processing

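Of 32 called values of single subunits, none reversed, and the 5 in Input kept their call under all 18 alternatives. The unadjusted p and no minimum fold only loosen the rule on the main fit, so that no call could be lost under them. Every tally of calls kept under alternatives counts them. In Input, the counts lower and higher were 4 and 1, and 15 and 2 with no minimum fold. Over all genes tested they were 851 and 1479, and 2695 and 2535 with no minimum fold. In Polysome, the count lower was 2, and it was 6 with DESeq2, 5 with no filter on low counts, 6 with the unadjusted p, 6 with 1 surrogate variable and 7 with all 16 libraries in one fit. Lower calls over all genes rose alongside, from 577 to 1101 with DESeq2 and 941 with no filter. With the unadjusted p, 1 surrogate variable and all 16 libraries in one fit they were 1343, 1399 and 1520. Leaving out 1 library gave 0 to 3, with 0 without Ctrl 2 or siRNAG5 1, 2 or 3 and 1 without Ctrl 4. Over all genes, 113 to 836 were then called lower. Between Polysome and Input in Ctrl, 5 subunits were higher with no minimum fold, against 3, where 3417 of all genes were, against 2898. For the difference between the fractions, 2 were lower with the unadjusted p and 2 with 1 surrogate variable, against 0. Over all genes 517 and 278 were lower in these settings, against 0. The causes were not tested. With upper quartile factors, 644 genes of all those tested were called lower and 1790 higher in Input (851 and 1479 with TMM) and 395 and 698 in Polysome (577 and 569), with 4 and 1 and 2 and 0 subunits among them as before. Whether the replicate numbers pair the samples was not settled. With the replicate block 4 and 1 were called in Input, 3 lower in Polysome, 7 and 3 in Ctrl, 11 and 4 in siRNAG5 and 0 for the difference. Without Input Ctrl 3 and 4, an alternative chosen after the data were seen, the counts were 5 and 1 in Input, 5 and 2 in Ctrl and 0 for the difference. Over all genes they were then 977 and 1468, 2094 and 2481, and 9 and 0. Of 2755 single values under alternatives, 54 lost and 60 gained a call, and 94 that were called in neither fit changed sign. Levels per kilobase of low-count genes are limited by depth, since POLR2F had 65 reads in all.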
